A study of Oryza sativa with 4 samples.

Results

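The first 3.0 Mb of rice chromosomes 11 and 12 are the ends of their short arms, and they carry copies of a segment that the chromosomes share by duplication. Peaks of the tagged transcription factor OsMADS27 were assigned to these ends when their summit lay below 3.0 Mb on either chromosome. This gave 659 of the 72738 peaks listed for replicate 1 (0.906%) and 669 of the 73366 listed for replicate 2 (0.912%). Chromosome 11 held 357 and 368 of them, and chromosome 12 held 302 and 301. Position alone defined the group, so tag numbers, fold enrichment, width and order played no part in the choice.

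All plants were of the indica cultivar Pusa Basmati 1 and overexpressed OsMADS27 with a triple Myc tag at its N-terminus. The chromatin came from young seedlings that were regenerating in half-strength Murashige-Skoog medium, without treatment. Of the 4 libraries, 2 hold DNA recovered on Myc-Trap magnetic agarose, here called pulled down, while 2 hold sheared input chromatin of the same genotype. No library from plants without the transgene was used here. The sources used here do not give the promoter of the transgene, the number of transgenic lines or the number of plants per library, so the spread between replicates may be technical. The pulled-down libraries kept 136923044 and 130482505 tags after the limit on duplicates, and their inputs 131452322 and 127964706. Across 431 distinct peaks of the short arm ends found in both lists, pulled-down tags of the replicates differed with a variance 0.652 times that of Poisson counting. The input backgrounds under 403 of these peaks gave 0.787. The lists were therefore read side by side, with no SD between them, and agreement between them is not independent support. Coordinates are those of the lists. The sources used here name no genome build, so no peak was assigned to a gene.

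OsMADS27 belongs to the MADS-domain family, whose members bind CArG boxes as dimers, and it is known from rice as a regulator of root growth and of the response to nitrate. The ends of the short arms of chromosomes 11 and 12 are a well known duplication of the rice genome. Genes of the copies lie largely in the same order, and exchange of sequence between the copies (gene conversion) has been described for them. A short sequencing tag from DNA that is identical in both copies matches both places. The sources used here do not say how the authors placed such tags.

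Peaks were sparse on both copies. Chromosome 11 held 119 peaks per Mb below 3.0 Mb in replicate 1 (95% exact Poisson interval 107 to 132) and 123 in replicate 2 (110 to 136). Chromosome 12 held 101 (89.6 to 113) and 100.3 (89.3 to 112). From 3.0 Mb to the last listed peak, densities were 193 and 191 per Mb for chromosome 11. They were 219.9 and 220.2 per Mb for chromosome 12. The density of the end was thus 0.618 times (0.553 to 0.688) and 0.641 times (0.575 to 0.712) that of the rest on chromosome 11. On chromosome 12 it was 0.458 times (0.406 to 0.514) and 0.456 times (0.404 to 0.512). These intervals cover counting error and treat peaks as independent, although peaks lay in clusters, so they are too narrow.

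Among the first 3.0 Mb of all 12 chromosomes, those of chromosomes 12 and 11 were the least dense and the next, in both lists. In replicate 1 the other 10 lay between 144 peaks per Mb on chromosome 10 and 319.7 on chromosome 4, and in replicate 2 between 141 and 332 on the same chromosomes. A lower density than in the rest of the same chromosome was found for 5 of these 10 in replicate 1 and for 4 in replicate 2, with the lowest ratio on chromosome 10 (0.682 and 0.646). A low density at the start of a chromosome was therefore not particular to the duplicated ends, but both lay below the range of the others.

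**Figure D1:**
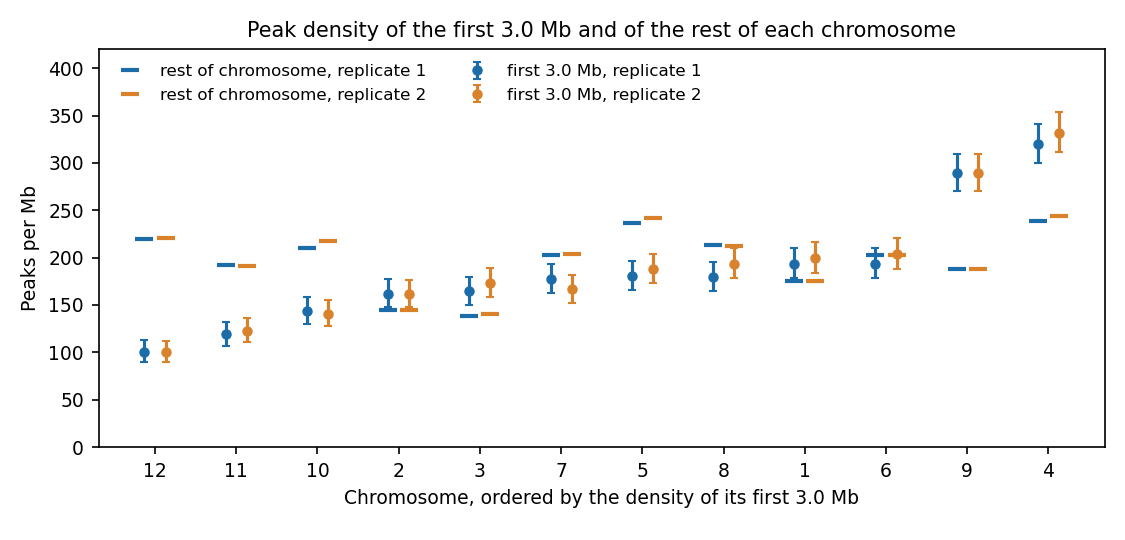
Peaks per Mb (vertical axis) in the first 3.0 Mb of each chromosome (points, with 95% exact Poisson intervals) and in the rest of the same chromosome (horizontal dashes), for both replicates, with chromosomes ordered along the horizontal axis by the density of the first 3.0 Mb. Chromosomes 12 and 11 stand at the left with 100.3 to 123 peaks per Mb, below the other 10.

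The copies differed from each other in where the sparse stretches lay. In the first Mb, chromosome 11 held 123 and 124 peaks and chromosome 12 held 53 and 45. From 1 to 2 Mb chromosome 11 held 163 and 173, and chromosome 12 had 145 and 143. From 2 to 3 Mb the order turned, with 71 and 71 peaks on chromosome 11 against 104 and 113 on chromosome 12. Over the whole 3.0 Mb, chromosome 11 held 1.18 times as many peaks as chromosome 12 in replicate 1 (95% exact interval 1.01 to 1.38) and 1.22 times as many in replicate 2 (1.05 to 1.43). Both intervals treat clustered peaks as independent and are too narrow, so a difference beyond counting error is not shown. Windows of 100 kb kept their peak numbers between the replicates, with a Spearman's rho of 0.97 on chromosome 11 and 0.91 on chromosome 12 over 30 windows. Windows at the same distance from the chromosome start on both copies did not follow each other in this way, with a rho of −0.05 in replicate 1 and −0.02 in replicate 2 (Pearson's r 0.23 and 0.26). These correlations describe windows of the same libraries. For the 65 other pairs of chromosome ends rho lay between −0.49 and 0.47 in replicate 1 and between −0.48 and 0.46 in replicate 2, and 39 and 38 of them were above the value for chromosomes 11 and 12.

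**Figure D2:**
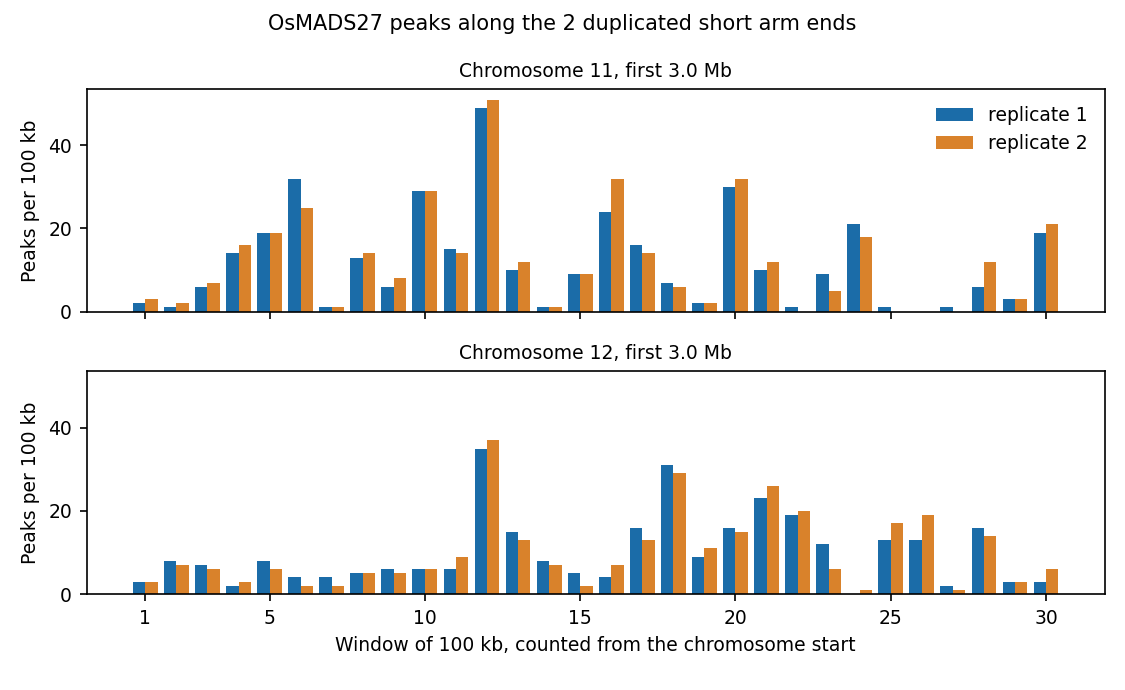
Peaks per window of 100 kb (vertical axis) along the first 3.0 Mb of chromosome 11 (top) and chromosome 12 (bottom), in order from the chromosome start, with bars for both replicates. The window from 1.1 to 1.2 Mb is the fullest on both copies, with 49 and 51 peaks on chromosome 11 and 35 and 37 on chromosome 12. From 0.3 to 0.6 Mb every window holds more peaks on chromosome 11, while the windows from 0.1 to 0.2 Mb and from 0.6 to 0.7 Mb hold more on chromosome 12.

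The fullest window of 100 kb was that from 1.1 to 1.2 Mb on both copies and in both lists, with 49 and 51 peaks on chromosome 11 and 35 and 37 on chromosome 12. Pairs of a chromosome 11 summit and a chromosome 12 summit at most 20 kb apart in distance from the start numbered 2079 and 2064, which was 1.45 and 1.40 times the number under an even spread. Of the 65 other pairs of chromosome ends, 1 had a higher ratio in replicate 1 and 2 had one in replicate 2. However, 970 and 874 of these pairs joined the run of 36 and 31 peaks that starts near 1.1 Mb on chromosome 11 to the run of 35 and 35 peaks on chromosome 12. Without both runs the ratio was 0.890 and 0.911, so the excess rested on these runs. At most 2 kb apart there were 75 such pairs in each list, 0.522 and 0.508 times an even spread. The 65 other pairs of ends had medians of 0.908 and 0.896. Of these, 63 and 62 were above the value for chromosomes 11 and 12.

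The longest stretches without a peak also lay apart. On chromosome 11 no summit was listed between 2429951 and 2616678 in replicate 1, a gap of 187 kb. In replicate 2 the gap there ran from 2328011 to 2718760, or 391 kb. On chromosome 12 the longest gap was 156 kb in replicate 1 (511741 to 667793) and 158 kb in replicate 2 (511740 to 669552).

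The strength and shape of the peaks were described by medians, given with no test. The median summit on chromosome 11 held 243 tags in replicate 1 and 240.5 in replicate 2, against 263 and 253.5 in the rest. On chromosome 12 the medians were 254 and 242 tags, against 270.0 and 266. Median fold enrichment over input, as called by the authors, was 1.79 and 1.82 on the chromosome 11 end and 1.80 and 1.81 on the chromosome 12 end, against 1.81 and 1.85, then 1.77 and 1.79, in the rest. Median width was 86.5 to 89 bp in the ends and 88 to 89 bp in the rest. The quartiles of fold enrichment in replicate 1 were 1.54 and 2.09 on chromosome 11 and 1.52 and 2.14 on chromosome 12.

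Summits near the limit of 500 tags were fewer on the ends. At least 450 tags were reached by 9 peaks (2.52%, 95% Wilson interval 1.33 to 4.72%) and 5 peaks (1.36%, 0.582 to 3.14%) on the chromosome 11 end, against 4.65% (4.10 to 5.27%) and 3.80% (3.30 to 4.36%) in the rest. On chromosome 12 they were 11 (3.64%, 2.05 to 6.40%) and 6 (1.99%, 0.917 to 4.28%), against intervals of 4.45 to 5.62% and 4.02 to 5.14% in the rest. The shares were lower on both copies and in both lists, but the intervals of the end and the rest overlap in 3 of the 4 comparisons on counting error alone, with the chromosome 11 end in replicate 2 as the exception.

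The lists found the same places at about the same rate on the ends as in the rest of chromosomes 11 and 12. Of the chromosome 11 end peaks, 263 of 357 in replicate 1 (73.7%, 95% Wilson interval 68.9 to 78.0%) and 262 of 368 in replicate 2 (71.2%, 66.4 to 75.6%) were shared, meaning that at least 50% of the shorter peak was covered in the other replicate. Over the whole lists the shares were higher, at 77.2% and 76.2%. On chromosome 12 the shares were 222 of 302 (73.5%, 68.3 to 78.2%) and 218 of 301 (72.4%, 67.1 to 77.2%). In the rest of chromosome 11 they were 74.6% and 74.8%, and in that of chromosome 12 they were 74.9% and 74.1%.

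Shared peaks were ranked by the smaller of their 2 folds, and the leading ones stood at different places on the copies. On chromosome 11 the first was at 919336 to 919392. It held 183 tags in replicate 1 (157 to 212, 95% exact Poisson interval), against 45 tags of input background. In replicate 2 it held 165 tags (141 to 192) against 44. Its folds were 3.84 and 3.62. The next was at 1529821 to 1529871, where 145 and 166 tags gave folds of 3.34 and 3.21. On chromosome 12 the first was at 2048336 to 2048401. It held 189 tags (163 to 218) against 54 of input in replicate 1 and 170 tags (145 to 198) against 50 in replicate 2, with folds of 3.32 and 3.29. It was followed by 832379 to 832452, with 94 and 84 tags and folds of 3.04 and 3.97. A fold of at least 3 in both lists was reached by 4 of 263 shared peaks on the chromosome 11 end and 2 of 222 on the chromosome 12 end, against 28 of 3740 and 23 of 4029 in the rest. None of these 6 had a peak of equal values on the other copy.

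Width set other peaks apart. The widest shared peak on chromosome 11 lay at 1103513 to 1103869, with 357 and 341 bp, 424 and 417 tags and folds of 1.61 and 1.90. On chromosome 12 the widest were at 1041428 to 1041915, with 488 and 482 bp, and at 1703403 to 1703696, with 294 and 298 bp. Both of the chromosome 12 peaks held 450 tags in replicate 1 and 436 in replicate 2, with folds of 1.32 and 1.33. The equal tags and folds thus recurred on the same copy, at peaks of unequal width.

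Low input background was taken as under 2 times the genome-wide average of 16.4 and 16.0 tags. On the chromosome 11 end 12 peaks (3.36%) and 9 peaks (2.45%) met this, against 4.07% and 4.56% in the rest. On the chromosome 12 end they were 16 (5.30%, 95% Wilson interval 3.29 to 8.43%) and 26 (8.64%, 5.96 to 12.4%), against 4.22% (3.71 to 4.79%) and 4.05% (3.55 to 4.61%) in the rest. The share was thus higher on the chromosome 12 end, beyond counting error in replicate 2 but not in replicate 1. Found in both lists, and at low background in both, were 4 on chromosome 11 and 8 on chromosome 12. Of the 8, the peak at 832379 to 832452 had the highest folds (above), and the peak at 828861 to 828980 followed with 59 and 66 tags over backgrounds of 18.4 and 19.0 and folds of 2.97 and 3.29. Of the 4 on chromosome 11, the peak at 581198 to 581250 had the highest folds, 2.80 and 2.85, with 93 and 89 tags. No counterpart of any of these 3 was listed on the other copy with equal values.

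The ratio of end to rest for low-background peaks was 0.51 and 0.344 for chromosome 11, whereas chromosome 12 gave 0.575 and 0.972. The last value had a 95% exact interval of 0.621 to 1.46, so a lower density of such peaks on the chromosome 12 end was not detectable in replicate 2.

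Equal values at different places were the means of looking for matched peaks. A pair was counted when a chromosome 11 end peak and a chromosome 12 end peak had the same tag number, fold enrichment and width in a list. An equal peak anywhere in the list was found for 67 of 357 (18.8%) and 77 of 368 (20.9%) of the chromosome 11 end peaks, against 17.7% and 17.6% of all listed peaks. For chromosome 12 the numbers were 60 of 302 (19.9%) and 50 of 301 (16.6%). These shares were near those of the whole lists.

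A partner on the chromosome 12 end was listed for 11 chromosome 11 end peaks in each replicate (3.08% and 2.99%). A partner on the chromosome 11 end was listed for 8 (2.65%) and 10 (3.32%) of the chromosome 12 end peaks. On the same copy, an equal peak was listed for 22 (6.16%) and 28 (7.61%) chromosome 11 end peaks and for 8 (2.65%) and 18 (5.98%) chromosome 12 end peaks. An equal peak on another chromosome than 11 and 12 was more frequent, with 51 (14.3%) and 62 (16.8%) chromosome 11 end peaks and 51 (16.9%) and 41 (13.6%) chromosome 12 end peaks. Values held by a single peak on each end and by no other peak of the list were found once per replicate.

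The pairs were nevertheless more frequent than between most other chromosome ends of the same length. There were 15 pairs in replicate 1 and 13 in replicate 2, or 139 and 117 per 1000000 combinations of peaks. Across the 65 other pairs of ends the median was 12.7 and 12.8. The highest was 116 and 119.8, for chromosomes 7 and 11, which exceeded the duplicated ends in replicate 2. For pairs equal in both lists, chromosomes 7 and 11 had 17 pairs, or 167 per 1000000 combinations, against 8 pairs, or 137, for chromosomes 11 and 12. The rest of chromosome 11 against the rest of chromosome 12 gave 6.34 and 8.42. Since a set of many copies yields many pairs, sets of equal values were counted as well. The duplicated ends shared 7 and 9 sets, or 64.9 and 81.3 per 1000000 combinations, and none of the other 65 pairs of ends was higher (highest 38.3 and 46.6, medians 9.53 and 7.87). In plain numbers of sets, other pairs of ends reached 11 and 13, on ends with more peaks. Pairs whose values occur nowhere else numbered 1 and 1 here, and 12 and 9 of the 65 other pairs of ends also held at least 1.

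**Figure D3:**
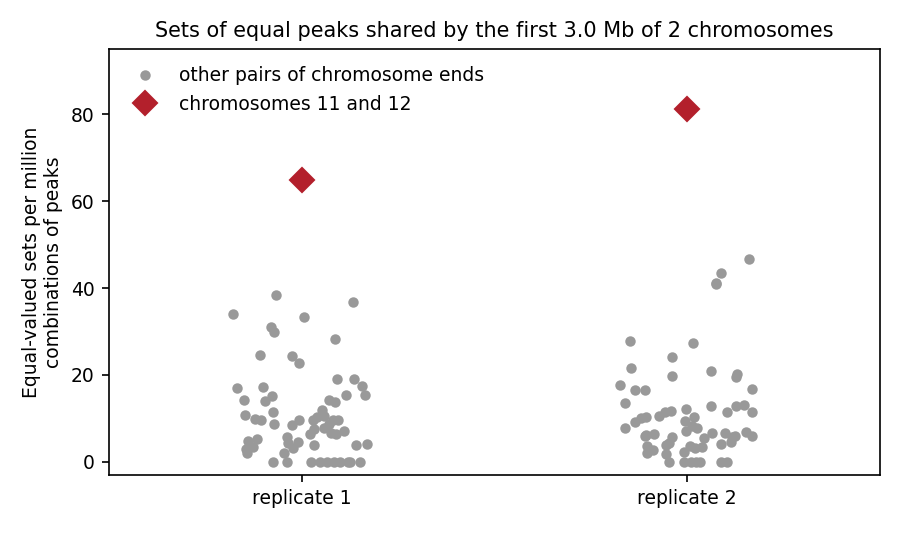
Sets of peaks with equal tags, fold enrichment and width that are shared by the first 3.0 Mb of a pair of chromosomes (vertical axis, per 1000000 combinations of peaks), for the 66 pairs of chromosomes in each replicate. Chromosomes 11 and 12 (diamonds) reach 64.9 and 81.3, above the 65 other pairs (grey points, highest 38.3 and 46.6).

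Pairs chosen in a single list kept equal tag numbers in the other where both peaks were listed there. Of the 15 pairs of replicate 1, 14 had both peaks in replicate 2, and in all 14 the tag numbers there were equal, while 8 were also equal in fold and width. Of the 13 pairs of replicate 2, 8 had both peaks in replicate 1, and all 8 were equal there in tags, fold and width. The rest of both chromosomes behaved alike, with equal tag numbers in 94.3% of 123 and 98.5% of 135 such pairs. The values of the list that was read had not been used to choose the pairs. However, pairs of a set share peaks and are not separate observations. Of the 15 pairs of replicate 1, 8 came from the set with 239 tags and 2 from that with 351. Of the 13 pairs of replicate 2, 4 came from the set with 237 tags and 2 from that with 344.

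The 8 pairs that were equal in both lists came from 4 sets. The first was the outermost, at 23380 to 23523 on chromosome 11 and 21780 to 21923 on chromosome 12 in replicate 1. Both places held 89 tags (71.5 to 110) against 37.0 of input, with a fold of 2.27. In replicate 2 they held 88 tags (70.6 to 108) against 51.0, with a fold of 1.68. The second set, with 213 and 203 tags, joined 1056109 to 1056164 on chromosome 11 and 1824969 to 1825024 on chromosome 12, and its values recurred in both lists at 35 peaks on 11 chromosomes. The third set, with 239 and 237 tags, held a pair of peaks on each copy and occurred at 21 peaks on 7 chromosomes. The fourth, with 351 and 344 tags, joined 1650924 to 1650985 and 2202353 to 2202414 on chromosome 11 with 158937 to 158998 on chromosome 12, and occurred at 20 peaks on 8 chromosomes. Values of 3 of the 4 sets were thus found at many places in the genome. The values of the outermost pair recurred in both lists at these 2 peaks alone, although replicate 2 by itself listed 1 other peak with them.

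In replicate 2 the outermost 100 kb showed peaks in the same order and with the same values on both copies, which replicate 1 showed for 1 peak only. In replicate 2, 3 peaks were listed there on each copy. On chromosome 11 they lay at 23364 to 23417, 34933 to 35007 and 84440 to 84489. On chromosome 12 they lay at 21764 to 21817, 33345 to 33419 and 80304 to 80353. The first of each held 88 tags, the second 85 and the third 52, with folds of 1.68, 1.79 and 3.06 and widths of 54, 75 and 50 bp on both chromosomes. The summits were 11548 and then 49519 bp apart on chromosome 11, and 11560 and then 46969 bp apart on chromosome 12. The order was thus kept, with nearly equal spacing for the outer interval and a longer inner interval on chromosome 11. The values of the second pair occurred nowhere else in the list, and those of the third occurred at 5 peaks in all. The third pair had a background of 16.0 tags, 1.00 times the genome-wide average. Its background and its width of 50 bp were about the lowest listed on both ends. Its equal fold and width therefore add little to its equal tag number.

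In replicate 1 the outermost 100 kb held 2 peaks on chromosome 11 and 3 on chromosome 12. The peak with 89 tags was listed on both. A peak on its outer side, at 22976 to 23103 on chromosome 11 and 21332 to 21422 on chromosome 12, had 55 tags (41.4 to 71.6) with a fold of 2.92 on the former and 75 tags (59.0 to 94.0) with a fold of 1.97 on the latter. Its summit was 402 bp from the next on chromosome 11 and 439 bp on chromosome 12. The intervals of the tag numbers overlap. The third chromosome 12 peak, at 77713 to 77821 with 86 tags, had no listed peak of equal values on chromosome 11, and the pairs with 85 and 52 tags of replicate 2 were not listed in replicate 1. Only the peak with 89 and 88 tags was therefore found in both lists on both copies within this stretch.

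Inward of 100 kb this correspondence ended. The next summit was at 172067 on chromosome 11 and 157260 on chromosome 12 in replicate 1, and no pair of equal values with an offset under 100 kb was listed from there to 3.0 Mb in either list. Over all pairs whose values stood at a single peak of each end, 3 of 5 in replicate 1 and 7 of 7 in replicate 2 lay on the longest run that rises along both chromosomes. In replicate 1 the longest falling run also held 3 of the 5, so neither order prevailed there, and 2 pairs in rising order were found in both lists. In replicate 2 these 7 comprised the 3 outermost pairs, 2 from the stretch described next, and a single pair each at 1577993 and 2316851 of chromosome 11. Their offsets ran from −4138 to 768860 bp, so these pairs kept their order in replicate 2 without a shared coordinate. Several of them lie in the same stretch, so fewer than 7 separate places were ordered. Values of the 2 pairs from the next stretch occurred at 36 and 16 peaks of that list. Those of the pairs at 1577993 and 2316851 occurred at 34 and 5.

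**Figure D4:**
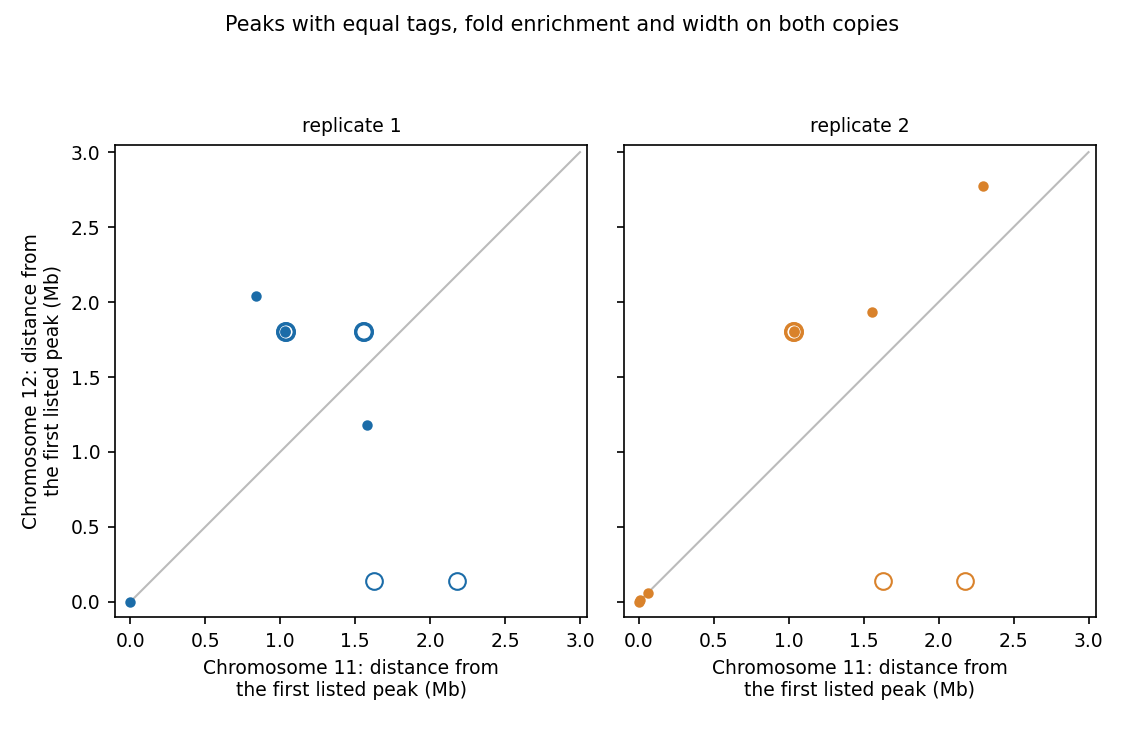
Positions of peaks with equal tags, fold enrichment and width on both copies, as distance in Mb from the first listed peak on chromosome 11 (horizontal axis) and chromosome 12 (vertical axis), for each replicate. Filled points are sets with 1 pair, open circles are sets with more than 1 pair, and the grey line marks equal distances; the outermost pairs lie on the line near its origin and the others lie away from it.

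The other run of matched peaks spanned about 5.5 kb and stood at different distances from the chromosome start. It lay at 1054888 to 1060423 on chromosome 11 and at 1823747 to 1829269 on chromosome 12 in replicate 1, with inner peaks offset by 768860 bp. A peak of 239 tags (fold 2.19) in replicate 1 and 237 tags (fold 2.68) in replicate 2 stood at both ends of the stretch on both copies, with summits 5483 bp apart on chromosome 11 and 5470 bp apart on chromosome 12. Between them, 279 and 269 tags were listed 1013 and 1021 bp from the first summit on chromosome 11, and the same tag numbers 1014 and 1022 bp from it on chromosome 12. A peak with 213 and 203 tags followed 1238 and 1246 bp from the first summit on chromosome 11, and 1239 and 1247 bp from it on chromosome 12. The stretch in which spacings stayed equal within 5 bp held 3 peaks on chromosome 11 in replicate 1 and 4 in replicate 2, and their counterparts on chromosome 12 had the same tag numbers. Equal values had been used to find the stretch, so this equality is a description.

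Farther along the stretch some peaks were equal and others were not. Chromosome 11 had 169 and 162 tags at 3459 and 3465 bp from the first summit, and chromosome 12 had 169 and 165 tags at 3443 and 3451 bp. A peak of 164 tags stood 4646 and 4647 bp from the first summit in replicate 2, and in replicate 1 it was listed on chromosome 11 with 151 tags but not on chromosome 12. Chromosome 12 had 2 further peaks in both lists that were not listed on chromosome 11. They were at 1826073 to 1826195 with 157 and 159 tags, and at 1828928 to 1828989, where 124 and 116 tags gave folds of 2.73 and 2.87. The latter was among the 5 leading shared peaks of the chromosome 12 end by fold.

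A similar stretch lay on the same copy of chromosome 11, at 1575143 to 1580607, with the peak of 239 and 237 tags at both of its ends, 5412 bp apart. The peaks between them mostly had other tag numbers than those of the former stretches. In replicate 1 they held 190, 317, 186 and 309 tags, numbers that no inner peak of the other stretches had. In replicate 2 inner peaks of 333 and 269 tags were listed here too, 2814 and 4392 bp from the first summit. Their folds were 1.71 and 1.79, against 1.64 and 1.74 in the matched stretches. Here 333 tags came before 269, the reverse of the order in the matched stretches. Summits that met in opposite orientation are given with the runs below. The peak that bounds these stretches had equal values at 37 places on 10 chromosomes in replicate 1, so the bounding peak was not particular to the duplicated ends.

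A large part of the peaks stood in runs, here at least 8 peaks with neighbouring summits at most 2000 bp apart. On the chromosome 11 end, 12 runs held 184 of 357 peaks in replicate 1 (51.5%) and 12 runs held 170 of 368 in replicate 2 (46.2%). Over all 12 chromosomes the shares were 54.6% and 56%. In the rest of chromosome 11 they were 49.5% and 50.3%, and in that of chromosome 12 they were 53.3% and 52.2%. On the chromosome 12 end, 9 runs held 144 of 302 peaks (47.7%) and 7 runs held 129 of 301 (42.9%). Runs were less dense than elsewhere, at 4 and 4 per Mb on the chromosome 11 end and 3 and 2.33 per Mb on the chromosome 12 end, against 5.84 and 6.07, and 8.10 and 8.26, in the rest of the respective chromosome.

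The longest runs were alike in length but not in layout. Runs of at least 25 peaks stood at 0.667 per Mb on each end in both lists. The rest of chromosome 11 held 1.19 and 1.27 per Mb, and the rest of chromosome 12 held 0.818 in both lists. Such runs were thus not particular to the ends. Each copy had 2 of them in both lists. On chromosome 11 they ran from 492276 to 503229 with 28 and 27 peaks and from 1098610 to 1111361 with 36 and 31. On chromosome 12 they ran from 1115075 to 1126879 with 35 and 35 peaks and from 1695744 to 1708252 with 40 and 33. The spans in replicate 1 were 10953, 12751, 11804 and 12508 bp, and the median folds 2.01, 1.95, 1.89 and 1.74. The second chromosome 11 run and the first chromosome 12 run are near the same distance from the chromosome start. Shifted to the offset at which most of their summits meet within 10 bp, in either orientation, any pair of these 4 runs shared 5 to 7 summits in replicate 1 and 5 or 6 in replicate 2, at most 19.4% and 18.5% of the shorter run. These percentages depend on run length, since the offset was chosen for the best fit and a shorter run has fewer summits. Among the other pairs of runs on different copies, the median was 29.4% in replicate 1 and 33.3% in replicate 2. The highest of them in replicate 2 was that of the 5.5 kb stretches, with 5 of 8 summits (62.5%). The run at 1575179 of chromosome 11 met that of the chromosome 12 stretch at 5 of 9 summits (55.6%) in opposite orientation. In the same orientation these runs met at 2. The largest parts were shared by runs on the same copy, although the medians of the other same-copy pairs were 33.3% and 30.8%. In replicate 1 the runs at 1649234 and 2200653 of chromosome 11 met at 6 summits, 75% of the shorter, and in replicate 2 the runs at 2493204 and 2498270 of chromosome 12 met at 7, or 77.8%.

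**Figure D5:**
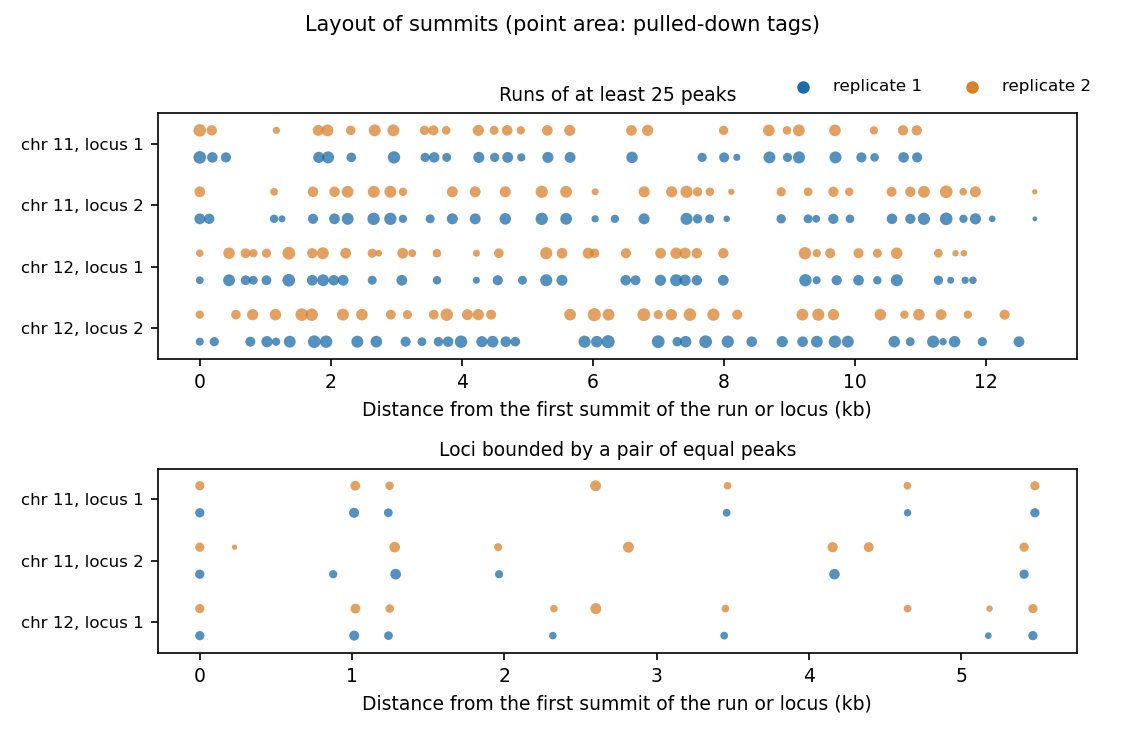
Summits of the 4 runs of at least 25 peaks (top) and of the 3 stretches bounded by the peak of 239 and 237 tags (bottom, labelled loci), as distance in kb from the first summit (horizontal axis), with a row for each locus and replicate and point area in proportion to pulled-down tags. At its best offset, any pair of long runs shares 5 to 7 summits, at most 19.4% of the shorter. The runs of the first chromosome 11 stretch and the chromosome 12 stretch share 5 of 8 in replicate 2.

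The border at 3.0 Mb did not fall at a gap. The last summit inside on chromosome 11 was at 2999110 in replicate 1, with 350 tags and a fold of 2.09, and the first outside was at 3001805, with 243 tags and a fold of 1.36. On chromosome 12 the last inside was at 2999850, with 266 tags and a fold of 1.93, and the first outside at 3000345, with 171 tags and a fold of 2.57. In replicate 2 the last inside held 358 and 262 tags and the first outside 429 and 159, on chromosomes 11 and 12. Whether the duplicated segment itself reaches this border was not tested, since no genome sequence was used here.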

How the data were processed

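Chromatin immunoprecipitation with sequencing from one end gave 2 pulled-down and 2 input libraries, grouped and numbered by their titles. Per the submitters' processing notes, cutadapt and MACS2 were used. Per the file headers, the authors ran MACS 2.2.5 on each pulled-down library against the input of the same number, with a q cutoff of 0.05, tags and fragment length of 50 bp, at most 5 tags per position and an effective genome size of 400 Mb. A folder name in those headers contains the word Bowtie, but the sources used here state no alignment step, treatment of tags with several matches or genome build.

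The deposited pileup is a signal, the tags over the summit scaled to the smaller library. Dividing it by that scale (0.960 and 0.981) gave whole tags within 0.02 for 100% of peaks. With 50 bp tags on both strands, a position can hold 500 tags. Fold enrichment, as deposited, is the ratio (pileup + 1) to (background + 1), and the input background was recomputed from it. The authors' p and q columns hold −log10 values. Start, end, length and summit (other columns) are in bp, per the file headers, and 1-based.

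The lists share a single group, so no contrast between groups of samples could be tested and no p-value is given. Densities use 3.0 Mb for an end and the span to the last listed peak for a rest. Equal peaks have the same deposited pileup, fold and length. Intervals cover counting error only. By rule, the named peaks were equal pairs found nowhere else in either list (none met this), counterparts with unequal tags (none), the widest and the highest-fold shared peak of each copy, and those next to the border. All other positions named were chosen after their values were seen. Members, lists and most alternatives were chosen with earlier results of these data known. The search for matched peaks was checked on simulated lists with a planted copy. Python 3.11.15, NumPy 2.4.6, pandas 2.3.3, SciPy 1.17.1 and matplotlib 3.10.9 were used.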

Additional observations from a re-analysis of the deposited data

How the results depend on the processing

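Of 70 alternatives over 18 values, 45 stayed within the interval of the value or within 1.5 times of the count, and 25 moved. The number that changed direction was 0, but only the ratios of end to rest density could do so. The other values are counts or shares, which have no direction. The share of peaks found in both lists stayed within its interval under all 3 alternatives on both copies. The ratio of end to rest density on chromosome 11 rose to 0.760 and 0.794 with a border at 2.0 Mb and to 0.690 in replicate 1 with a border at 2.5 Mb. With peaks at low background it was 0.51 and 0.344 on chromosome 11 and 0.575 and 0.972 on chromosome 12, and with runs counted once it was 0.528 on chromosome 12 in replicate 2. Pairs of equal values rose to 23 and 22 when width was not asked, and fell to 1 and 1 when the values had to occur nowhere else. Pairs on the rising run were 6 of 11 in replicate 1 without the condition on width, against 3 of 5, and 4 of 4 in replicate 2 at a −log10 q of at least 5, against 7 of 7. Counterparts rose to 5 and 9 with tolerances of 50 bp. Adding stretches in opposite orientation left 3 and 4, but only stretches found from equal-valued pairs were counted. The share of peaks in runs was 32.3% and 25.7% with summits at most 1000 bp apart, 59.6% and 58.4% with 5000 bp, and 63.3% and 66.5% from 5 peaks, against 49.8% and 44.2%. In a single list the 8 pairs equal in both became 13 to 15, and the 2 ordered pairs 3 to 7. The cause was not tested, beyond the fewer or more peaks each setting uses. Settings on low background, runs (also for summit pairs within 20 kb) and opposite orientation were added after seeing the data. No paired analysis was possible because each list is already the outcome of setting a pulled-down library against its own input, and only 1 group has peaks. Folds are limited by the ceiling of 500 tags where background is high.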
